A study of Mus musculus with 6 samples.

Results

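The cytochrome P450 genes of families 1 to 4 were examined in Hepa 1-6 cells, a mouse hepatoma line. The members were all rows of the gene table whose symbol starts with Cyp, then a family number from 1 to 4, a subfamily letter and a gene number. This rule found 54 members among 18169 genes, and 16 of the 54 passed the expression filter. The filter asked for about 10 counts in at least 3 libraries and a total of at least 15. The other 38 members were too low to test.

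The study sequenced mRNA from Hepa 1-6 cells given Sonic hedgehog protein (Shh) or vehicle, with 3 libraries per group. The comparison asks which transcripts differ in this line when Shh is added. The groups differed by treatment alone in the labels, all libraries came from 1 line, and neither dose nor duration was named for these libraries. The labels call the cells mouse hepatocyte and leave unstated if replicate libraries were grown as separate cultures. The p-values therefore measure only library-to-library spread, which may be technical.

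Cytochrome P450 enzymes are heme proteins that insert an oxygen atom into their substrates with electrons from NADPH, which reach the microsomal enzymes through P450 oxidoreductase. Families 1 to 3 are best known for the metabolism of drugs, pollutants and steroids, and family 4 for the hydroxylation of fatty acids and eicosanoids. In liver, many of these genes are switched on by ligand-activated factors: the aryl hydrocarbon receptor (AHR) for family 1, CAR and PXR for Cyp2b, Cyp2c and Cyp3a genes, and PPARα for Cyp4a genes.

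Library totals lay between 20253781 and 20335463 estimated counts. The hepatocyte markers Alb, Trf, Afp and Fgb had mean levels of 494, 250, 191 and 122 FPKM (a read level scaled for transcript length and library depth), while Ttr, Ahsg and Serpina1a, also defining hepatocyte genes, were near 0 at 0.49, 0.188 and 0.03 FPKM. The cholangiocyte keratin Krt7 stood at 99.1 FPKM, and the endothelial gene Pecam1 at 0.20 FPKM. Of the macrophage and leukocyte list, Cd68 stood at 11.4, Lyz2 at 2.37, Csf1r at 0.67, Ptprc at 0.0983 and Adgre1 at 0.045 FPKM. A pair of Shh libraries stood apart. Between Shh replicate 2 and the other libraries the chi-square per degree of freedom was 6.33 to 12.2, against 1.70 to 4.91 among the others. In Shh replicate 1, 45 of 11436 genes with a mean of at least 1 CPM were at least 1.5 times as high as in every other library, against 1 to 3 genes in each of the other libraries. CPM here are TMM-normalized counts scaled to a common library size.

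RefSeq lists 79 protein-coding mouse genes that match the rule, and all 54 members were matched to one of them by gene ID. The remaining 25 were not analysed here. All 3 protein-coding genes of family 1 had a row, and 1 passed the filter. In family 2, 33 of 47 had a row and 7 passed. In family 3, 5 of 9 had a row and 2 passed. In family 4, 13 of 20 had a row and 6 passed. Of the 21 subfamilies with a protein-coding gene, 12 had a member that passed and 9 had rows but no such member. With other limits, 12 members had a mean of at least 1 CPM, 10 had a mean of at least 1 FPKM, and 22 had a count in every library.

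**Figure D1:**
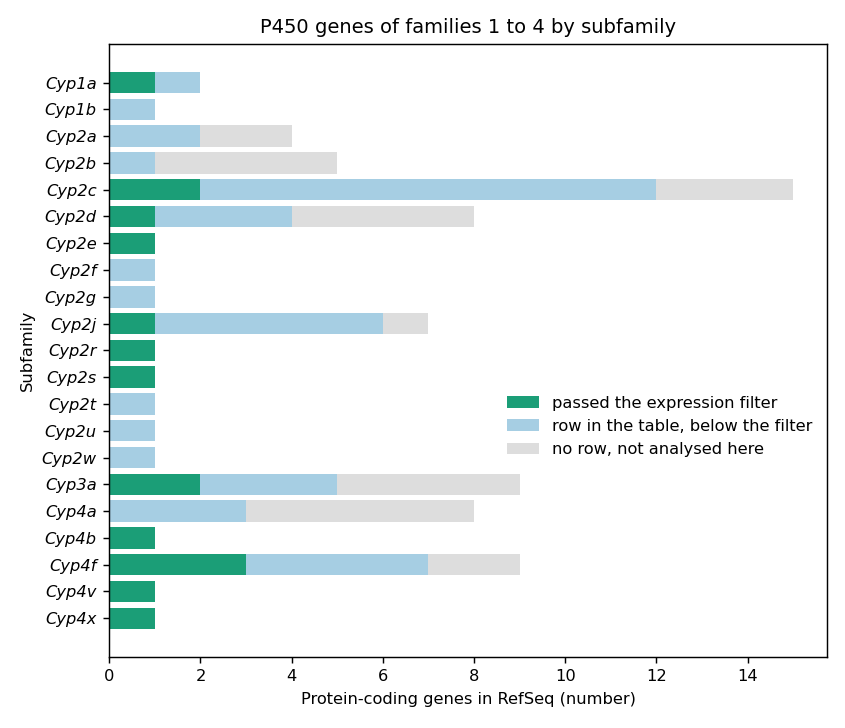
Number of protein-coding genes in RefSeq (x axis) for each P450 subfamily (y axis), split into genes that passed the expression filter, genes with a row below the filter, and genes not analysed here. Cyp2c is the largest subfamily with 15 genes, of which 2 passed, while Cyp4f had 3 of 9 and Cyp4a 0 of 8.

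Expression was concentrated in a few genes. The members together held 6680.94 to 7233.02 counts per library, which was 0.0329% to 0.0357% of all counts. Cyp2s1 and Cyp1a1 alone supplied 66.7% to 68.4% of the members' counts, and the top 4 members supplied 86.3% to 88.9%. Summed over FPKM, which allows levels of different genes to be compared, Cyp2s held 41.8% of the members' total, Cyp1a 25.4%, Cyp4f 16.3% and Cyp3a 8.26%. Cyp2c held 2.42% and Cyp2e 1.31%, while Cyp2d held 0.236%, Cyp2a 0.157%, Cyp4a 0.00856% and Cyp2b 0.00734%.

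**Figure D2:**
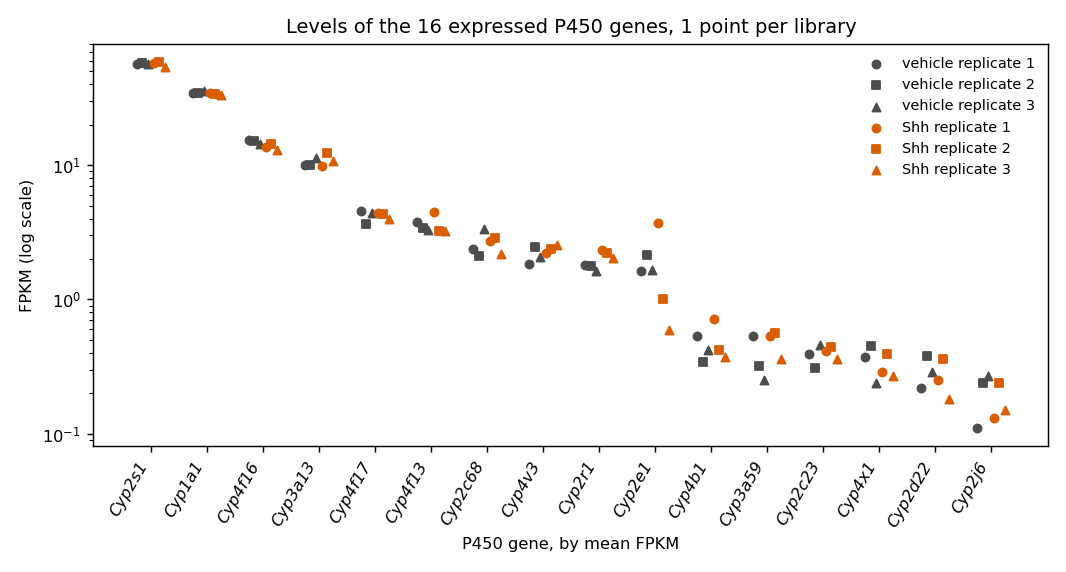
FPKM on a log axis for the 16 members that passed the filter, ordered by mean FPKM, with 1 point per library. Levels run from a mean of 56.9 FPKM for Cyp2s1 to 0.19 FPKM for Cyp2j6, and the 6 points of Cyp2e1 are the most widely spread among genes above 1 FPKM.

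In family 1, the xenobiotic-metabolizing Cyp1a1 was the single expressed gene, at a mean of 34.5 FPKM. Its vehicle libraries held 90.3, 89.5 and 92.0 CPM and its Shh libraries 89.8, 85.5 and 85.9 CPM. The ranges overlapped, and the log2 fold change of Shh against vehicle was -0.06 ± 0.04 (SE, n = 3 per group; adjusted p = 0.633, edgeR quasi-likelihood test with Benjamini-Hochberg adjustment). Its neighbour Cyp1a2, a major P450 of normal liver, had 1.06 to 5.26 counts per library. Cyp1b1, which hydroxylates estradiol and polycyclic hydrocarbons, had 5 to 13 counts.

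Among family 2 genes, Cyp2s1, an AHR-responsive enzyme found mainly outside the liver, was the most abundant of all members at 56.9 FPKM. Vehicle libraries held 148.4, 149.6 and 148.0 CPM and Shh libraries 148.3, 146.9 and 138.3 CPM. The groups overlapped, with Shh replicate 3 the lowest, and the log2 fold change was -0.04 (95% interval -0.13 to 0.05; edgeR adjusted p = 0.734).

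Cyp2r1, the microsomal vitamin D 25-hydroxylase, had a mean of 1.96 FPKM. It held 2.15, 2.14 and 1.88 CPM in vehicle and 2.87, 2.60 and 2.36 CPM in Shh libraries. All 3 Shh values lay above all 3 vehicle values, as for 6.78% of all tested genes. The log2 fold change was 0.34 ± 0.18 (SE), and the gene did not pass the test (edgeR adjusted p = 0.508).

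Cyp2e1, which oxidizes ethanol and other small molecules and is abundant in normal liver, had a mean of 1.78 FPKM. Vehicle libraries held 2.79, 3.74 and 2.87 CPM, and Shh libraries 6.34, 1.69 and 0.981 CPM. Shh replicate 1 was the highest of the 6 libraries and Shh replicates 2 and 3 were the lowest, so the groups overlapped around the vehicle values. The log2 fold change was -0.07 with a wide 95% interval of -1.10 to 0.97 (edgeR adjusted p = 0.969). Without Shh replicate 1 it was -1.23 ± 0.26 (SE; edgeR adjusted p = 0.0467), so the call rests on leaving out that library. The sign turned without vehicle replicate 2 (0.079), Shh replicate 2 (0.22) or Shh replicate 3 (0.35), none of which gave a call.

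Cyp2e1 was 1 of the 45 genes that stood out in Shh replicate 1. That set also held adipocyte genes such as Adipoq, which encodes adiponectin, and Car3, as well as Cd74 and H2-Aa of antigen-presenting cells and the collagen Col3a1. An adipocyte list was therefore drawn up after these values were seen. All 12 of its genes had a row and 11 were tested, of which 10 were highest in Shh replicate 1, beside 15.1% of all tested genes. Since the list was drawn from genes seen high in that library, this count is a description. Their summed level was 65.5 to 70.7 FPKM in vehicle and 51.7 to 105 FPKM in Shh libraries, and Lep, a defining adipocyte gene, was near 0 at 0.0133 FPKM. Adipoq held 1.15, 1.30 and 1.43 CPM in vehicle and 2.67, 0.819 and 0.442 CPM in Shh libraries. It was therefore highest in Shh replicate 1 and lowest in Shh replicates 2 and 3, as was Cyp2e1. Not all of the list had this order, and 6 of the 11 tested genes were lowest in Shh replicate 3. Plin1, Cidec and Lpl were lowest in a vehicle library, and Retn in Shh replicate 3 lay above vehicle replicates 1 and 3. A second list of 5 antigen-presenting genes, also chosen after the values were seen, summed to 8.83 to 13.3 FPKM in vehicle and 8.53 to 25.6 FPKM in Shh libraries. Lists of other cell types, which were not chosen on that library, differed from one another. The cholangiocyte list stood at 237.3 CPM in Shh replicate 1, close to the 238.0 to 247.0 CPM of the other libraries, and 0 of 4 tested genes were highest there. Of the hepatocyte list 2 of 7 tested genes were highest there, and its sum was 2432.8 CPM against 2310.5 to 2450.9 CPM in the other libraries. Of the endothelial list 1 of 2 tested genes was highest there. Its sum was low but also highest there, at 2.72 CPM against 1.14 to 2.34 CPM in the other libraries. The stellate and fibroblast list and the macrophage and leukocyte list were likewise highest in Shh replicate 1. All 4 tested stellate and fibroblast genes were highest in Shh replicate 1, with a sum of 51.3 CPM against 15.8 to 33.3 CPM in the other libraries, as were all 3 tested macrophage and leukocyte genes, with 25.8 CPM against 15.4 to 20.0 CPM. The part of these transcripts in the Cyp2e1 values was not tested.

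**Figure D3:**
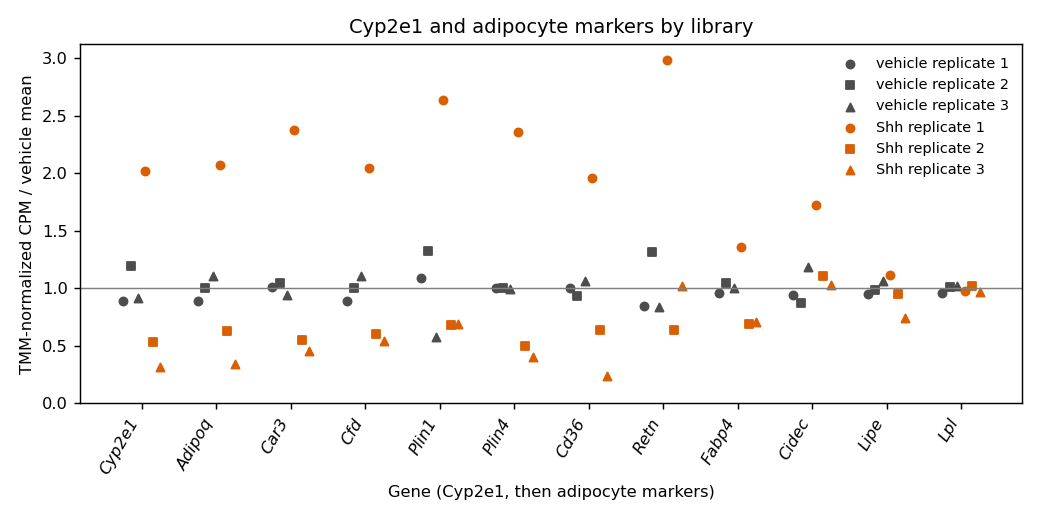
CPM of Cyp2e1 and the 11 tested adipocyte genes in each library, divided by the vehicle mean of that gene (y axis, 1 is the vehicle mean). Shh replicate 1 lies at 2.02 for Cyp2e1 and 2.07 for Adipoq, Shh replicate 3 lies at 0.313 and 0.342, and Lpl stays between 0.963 and 1.02.

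The other expressed family 2 genes were lower. Cyp2c68 had a mean of 2.60 FPKM and a log2 fold change of -0.02, and 43.3% of its 50-base windows also occur in other genes, mainly Cyp2c40, so its reads may be split among copies. Cyp2c23, an arachidonic acid epoxygenase, had 0.395 FPKM and Cyp2d22, of the subfamily of human CYP2D6, 0.28 FPKM. Cyp2j6, of an epoxygenase subfamily, was the lowest at 0.19 FPKM, with 8 to 19.64 counts per library. Below the filter, Cyp2a5, a coumarin hydroxylase, had 3 to 13 counts, and Cyp2b10, the classic CAR target, reached 1 count in any library. All of these genes overlapped between groups where tested.

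In family 3, Cyp3a13 was the main gene at 10.7 FPKM. Vehicle libraries held 38.1, 36.7 and 40.3 CPM and Shh libraries 37.2, 44.4 and 38.9 CPM. Shh replicate 2 was the highest and the groups overlapped, with a log2 fold change of 0.07 ± 0.07 (SE; edgeR adjusted p = 0.737), which turned to -0.013 without Shh replicate 2. Cyp3a59 had 0.425 FPKM and a log2 fold change of 0.38 ± 0.31 (SE), and 601 of its 2002 50-base windows are shared with Cyp3a25 or Cyp3a57.

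Family 4 was represented mainly by Cyp4f genes, whose products hydroxylate leukotrienes and fatty acids at the end of the chain. Cyp4f16 was the highest at 14.3 FPKM. It held 34.2, 33.5 and 31.7 CPM in vehicle and 29.8, 30.7 and 28.5 CPM in Shh libraries. All Shh values lay below all vehicle values, as for 8.68% of all tested genes. The log2 fold change was -0.16 ± 0.06 (SE, 95% interval -0.28 to -0.04), which did not pass adjustment (edgeR adjusted p = 0.469, the lowest among the members). Of its 50-base windows 17.4% occur in other genes, chiefly Cyp4f37, which had at most 4.97 counts in a library.

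Cyp4f17 and Cyp4f13 followed at 4.22 and 3.58 FPKM. Cyp4f17 held 10.1 to 12.3 CPM in vehicle and 10.1 to 11.5 CPM in Shh libraries. Cyp4f13 was highest in Shh replicate 1, at 7.28 CPM, and between 4.91 and 6.34 CPM in the others. Cyp4v3, the mouse counterpart of the fatty acid hydroxylase CYP4V2, had 2.24 FPKM and a log2 fold change of 0.14. Cyp4b1, which acts on fatty acids mainly outside the liver, had 0.465 FPKM, and Cyp4x1 had 0.335 FPKM. For Cyp4x1 14.9% of windows are shared, mostly with its antisense gene, and whether the counting used strand is not given. The Cyp4a genes, the classic PPARα targets, had rows for 3 of 8, with sums of 0 to 1.7 counts per library.

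Across the expressed members, none of 16 was called at an adjusted p of 0.05 by edgeR or DESeq2, where the background over 12286 tested genes was 0%. At an unadjusted p under 0.05 edgeR gave 1 member, Cyp4f16, lower with Shh and 0 higher, beside 5.56% and 4.83% of all tested genes (10.4% in either direction), and DESeq2 gave 0 members beside 6.63%. Without Shh replicate 3 the edgeR count was 0, beside 9.33% of all genes tested in that setting. Without vehicle replicate 1 the 1 member was Cyp3a59, beside 4.89% of all genes. Without Shh replicate 1 the count was 2, Cyp2e1 and Cyp4f16, beside 21.1% of all genes. The groups did not overlap for Cyp2r1 and Cyp4f16 alone, while 15.5% of all tested genes did not overlap. The fold change was above 0 for 6 members and below 0 for 10, and with an offset for transcript length 8 were above and 8 below. The median log2 fold change was -0.03, against 0.0028 over all tested genes, and without Shh replicate 3 the members' median was 0.08. The 95% intervals set what these libraries could resolve: for Cyp1a1 the interval reached from -0.15 to 0.04, while for Cyp2j6 it reached from -1.30 to 0.47.

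**Figure D4:**
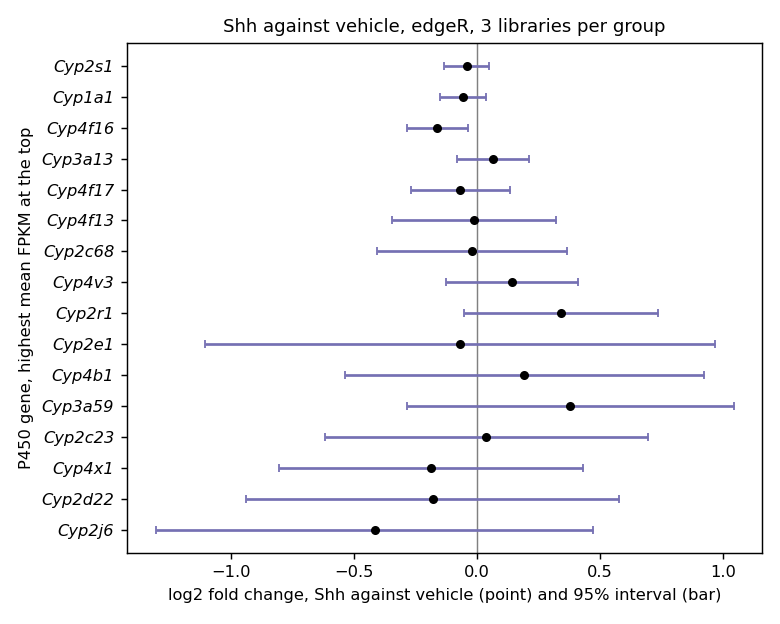
Log2 fold change of Shh against vehicle (x axis, points) with 95% intervals (bars) from edgeR for the 16 expressed members (y axis, highest mean FPKM at the top, 3 libraries per group). The interval of Cyp4f16 lies below 0 from -0.28 to -0.04, the other 15 cross 0, and that of Cyp2e1 is the widest.

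The promoters of the members were searched for the core of the AHR response element, GCGTG, on both strands. Only windows close to the start site were searched, and all matches in members lay between -237 and 39 bases from it. RefSeq promoter windows (build GRCm38.p6) were present for 12 of the 16 expressed members, and 5 of the 12 held the core: Cyp1a1, Cyp2c68, Cyp2r1, Cyp4f16 and Cyp4v3. Among all members, expressed or not, 13 of the 44 with a window held it. Of all 27025 genes with such windows, 35.2% held it in at least 1 (32.4% of 32851 windows). The GLI core GGGTGGTC, bound by the transcription factors of the Hedgehog pathway, was in windows of 0.932% of all genes (0.807% of windows), in none of the 12 and in 1 other member, Cyp1b1. Short stretches around the matches are shown for the family 1 genes and for Cyp4f16, since these are the AHR target, the GLI match and the member with the smallest p. Sequences read 5′ to 3′ on the strand of the gene. Capitals mark the core, which appears as its reverse complement where it lies on the opposite strand. A match is a description of letters and not evidence of binding.
Cyp1a1, chr9:57697547-57697576, plus strand: tcagataaggagGCGTGgccaacagacaca
Cyp1b1, chr17:79715120-79715149, minus strand: cgtcccgcccctCACGCcccaccccctaag
Cyp1b1 (GLI core), chr17:79715196-79715225, minus strand: atttcccactgGACCACCCtgggtcactaa
Cyp4f16, chr17:32536321-32536350, plus strand: tacttcctccttCACGCttttatcagcaga

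The factors that act on these genes were present unevenly. Of 29 regulators, all had a row and 24 were tested. The liver factors Cebpb, Foxa2 and Hnf4a stood at 59.1, 47.7 and 45.8 FPKM, and Ahr and its partner Arnt at 11.8 and 18.4 FPKM. The receptor genes Nr1i2 (PXR), Nr1i3 (CAR) and Ppara stood at 0.0067, 0.407 and 0.23 FPKM, and the AHR repressor gene Ahrr at 0.075 FPKM. Between groups 0 regulators were called by edgeR or DESeq2. At an unadjusted p under 0.05 edgeR gave 2 higher, the glucocorticoid receptor gene Nr3c1 (log2 fold change 0.19) and Foxa1 (0.22), and 0 lower, with a list median of 0.02. Beside these and the following lists, 4.83% of all tested genes were higher and 5.56% lower at that p, and with the length offset 2.45% and 3.33%. With the offset Nr3c1 alone remained, at 0.12.

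**Figure D5:**
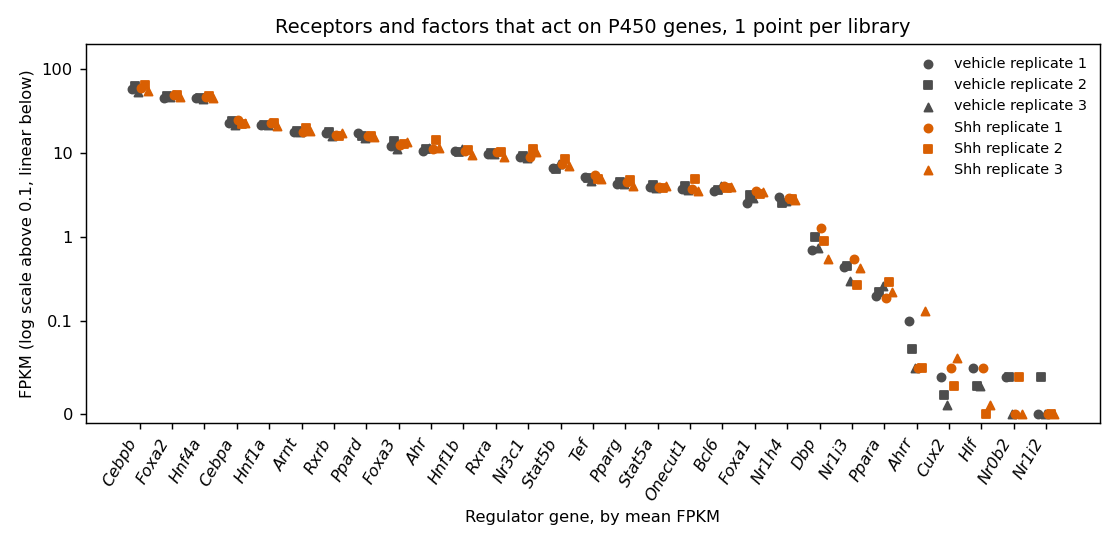
FPKM (y axis, log scale above 0.1 and linear below) of the 29 regulators of P450 genes, ordered by mean FPKM, with 1 point per library. Cebpb, Foxa2 and Hnf4a lie near the top and Nr1i2 at the bottom, listed at 0 in all libraries but vehicle replicate 2.

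The partners of the P450 enzymes were well expressed. Por, the oxidoreductase that feeds electrons to microsomal P450s, stood at 95.01 FPKM, and the cytochrome b5 gene Cyb5a at 161 FPKM. Of 11 electron donors 10 were tested, with 0 called by edgeR or DESeq2. At an unadjusted p under 0.05 edgeR gave 1 lower, the mitochondrial ferredoxin gene Fdx1 (log2 fold change -0.19), and 0 higher, with a list median of -0.03. With the length offset Fdx1 was at -0.12 and no longer at that p, and Pgrmc1, a heme-binding partner of P450s, was the 1 gene higher. Of 13 genes of heme synthesis and breakdown 12 were tested and 0 called by either tool. At the unadjusted p 3 were lower and 0 higher, with a median of -0.06, beside 5.56% of all genes lower. These were Alad (-0.11), which joins aminolevulinate units, the biliverdin reductase gene Blvrb (-0.16) and Alas1 (-0.13), which encodes the rate-limiting enzyme of heme synthesis in liver. With the length offset Alad (-0.054) and Blvrb (-0.068) were no longer at that p, while Alas1 remained.

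Lists of genes that share inducers, substrates or products with the members also had 0 called by edgeR or DESeq2 in each list. Without Shh replicate 1, 5 genes of all the lists, those above included, were called by edgeR, beside 195 of 12391 genes tested in that setting. The 5 were Blvrb of the heme list, Nr3c1 of the regulators, Gstm1, Gstp1 and Tiparp. Of 8 AHR targets outside the P450s 7 were tested, and at an unadjusted p under 0.05 1 was higher, the ADP-ribosyltransferase gene Tiparp (log2 fold change 0.18), and 0 lower, with a median of 0.06. With the length offset none was. The quinone reductase gene Nqo1 stood at 7.30 FPKM with a log2 fold change of 0.01. Of 51 phase II conjugation enzymes 31 were tested, 6 were lower and 0 higher at the unadjusted p, beside 5.56% of all genes lower, and the median was -0.07. Among them were the glutathione transferase genes Gstp1 (772 FPKM, -0.15), Mgst1 (-0.23) and Mgst2 (-0.23) and the acetyltransferase gene Nat2 (-0.30). With the length offset 1 of the 6 remained, Mgst1 at -0.14, Gstp1 was at -0.042 and Mgst2 at -0.11, and the list median was -0.011.

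The list of 21 eicosanoid enzymes outside P450 families 1 to 4 includes thromboxane and prostacyclin synthase. These are P450s that also stand in the list of other families below. Of the 21 enzymes 13 were tested, with 1 higher and 0 lower at the unadjusted p and a median of -0.06. The one was the lipoxygenase gene Alox15 (log2 fold change 0.55), at a low level of 0.07 to 0.13 FPKM per library. The epoxide hydrolase gene Ephx1 stood at 153 FPKM. With the length offset Alox15 was no longer at that p and the prostaglandin synthase gene Ptges was the 1 lower. The list of P450s of other families held 22 symbols, with thromboxane synthase entered under 2 of them. Of the 22 symbols 10 were tested, with 0 higher and 2 lower at the unadjusted p and a median of -0.11. These were the sterol hydroxylase genes Cyp27a1 (-0.21) and Cyp7b1 (-0.38), while the cholesterol-synthesis gene Cyp51 was highest at 36.5 FPKM. Cyp27a1 and Cyp7b1 remained at that p with the length offset. Of 4 Hedgehog targets 2 were tested, with 0 at the unadjusted p. The receptor gene Ptch1 had a log2 fold change of 0.03 ± 0.06 (SE), which turned to -0.046 with the length offset, and the effector gene Gli1 0.04 ± 0.18 (SE), and both overlapped between groups.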

How the data were processed

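Hepa 1-6 RNA was sequenced by the authors as oligo(dT)-selected mRNA with single-end reads. The deposited values were estimated counts (36.37% of those above 0 differed from a whole number by over 0.001) and FPKM, which the authors scaled for transcript length and depth. The submitters' processing notes name Bowtie2. The counting tool, build and annotation were not given in the sources used here. Columns named control were taken as the vehicle libraries. The other 12 value columns were not used. The labels name the cell line and were followed, although the design text mentions liver exosomes.

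The counts, rounded to whole numbers, were tested with edgeR 4.0.16 under R 4.3.3, using TMM factors and filterByExpr (minimum count 10, minimum total 15). The quasi-likelihood test had the group as its term, with Benjamini-Hochberg adjustment at 0.05, and DESeq2 1.42.0 was an alternative. Further alternatives changed the normalization factors, the filter, a length offset and the replicate block, or left out each library. Scripts were tested on simulated data. FPKM was used for levels between genes. Shared windows were counted over GENCODE transcripts.

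Members and lists were chosen with earlier results of these data known. Named were members that passed the filter, up to 3 others per subfamily, and, of each list, up to 4 genes with the smallest p and up to 3 with the highest FPKM. Arnt, Nr1i2, Nr1i3, Ppara, Ahrr, Cyp4f37, Gstm1, Lyz2, Csf1r, Adgre1 and the adipocyte and antigen-presenting genes were named after their values were seen. The counts of list genes at an unadjusted p with the length offset were added after seeing the data.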

Additional observations from a re-analysis of the deposited data

How the results depend on the processing

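The number of expressed members was 16, and it was 54 for a count in any library, 10 for a mean FPKM of at least 1, 12 for 1 CPM in 3 libraries, 22 for a count in every library and 16 without each library in turn. Members called stayed at 0, except 1 (Cyp2e1) without Shh replicate 1 (range 0 to 1). In that setting 195 of 12391 genes were called in all, against 0 in the main fit. Members at an unadjusted p under 0.05 were 1, beside 10.4% of all tested genes, against 0 with DESeq2, beside 6.63%. With an offset for transcript length they were 2 (Cyp2r1 and Cyp4f16), beside 5.78% of all genes tested in that setting. When 1 library was left out they were 0 to 2. The count was 2 without Shh replicate 1, beside 21.1% of all genes, and 0 without Shh replicate 3, beside 9.33%. List genes called were 0, and 0 to 5 when 1 library was left out, the 5 without Shh replicate 1 being Blvrb, Gstm1, Gstp1, Nr3c1 and Tiparp. With the replicate block 0 members were called and 1 was at an unadjusted p under 0.05, beside 11.1% of all tested genes. Correlations of same-numbered libraries were -0.0451, -0.0516 and 0.0971, and those of differently numbered libraries ran from -0.176 to 0.202. The same-numbered values were no higher than the others, but 3 libraries per group are too few to settle if the numbers mark pairs.

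Log2 fold changes that turned sign with the length offset were Arnt -0.017, Cyp2c68 0.026, Cyp4f13 0.031, Cyp51 -0.013, Ptch1 -0.046, and with that offset and the replicate block Arnt -0.017, Cyp2c68 0.036, Cyp4f13 0.022, Cyp51 -0.013, Ptch1 -0.044. Leaving out 1 library turned the sign of the following in at least 1 case, given with the lowest and highest value: Arnt -0.00028 to 0.044, Cyp2c23 -0.097 to 0.19, Cyp2c68 -0.15 to 0.20, Cyp2d22 -0.45 to 0.043, Cyp2e1 -1.23 to 0.35, Cyp3a13 -0.013 to 0.12, Cyp4b1 -0.15 to 0.37, Cyp4f13 -0.21 to 0.091, Cyp4x1 -0.41 to 0.023, Gli1 -0.060 to 0.10, Nqo1 -0.028 to 0.073, Por -0.058 to 0.0060, Ptch1 -0.033 to 0.073. The cause was not tested. The alternative planned for files with FPKM or TPM alone was not run, since counts were deposited. At 8 to 19.64 counts per library, as for Cyp2j6, the interval of the fold change was too wide to show small differences.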
